A study of Mus musculus with 13 samples.

Results

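Interleukins and interleukin receptors were read in bulk RNA sequencing of basal cell carcinoma (BCC) tumors from 2 mouse models. The genes were the rows of the deposited matrix of RSEM estimated counts whose symbol begins with Il and a digit. They comprise 81 of the 21100 genes in the matrix, and 2 further rows with that prefix are not reported here. GEM-BCC tumors (9 tumors of 7 mice) arose in the skin of female Ptch1+/- K14-CreERT2 p53fl/fl mice (written K14-CreER2 in the sample labels) after 3 injections of 300 µg tamoxifen and 1 X-ray dose of 4 Gy, where the promoter of K14, a basal keratin, confines Cre, and so the loss of p53, to cells that use it. Tp-BCC tumors (4 tumors of 4 mice) grew from 2000000 cells placed under the skin of female Ptch1+/- p53fl/fl mice that carry no Cre. All of them descend from a single GEM-BCC tumor by passage from mouse to mouse. Hosts of both models therefore share the heterozygous Ptch1 deletion and the floxed p53 alleles. GEM-BCC and Tp-BCC tumors were also collected, isolated and sequenced as separate batches, so model and batch cannot be told apart in any comparison below.

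Interleukins are secreted proteins through which immune cells, keratinocytes and stromal cells signal to each other. Most Il1 family ligands, though not Il18, act through receptors joined by the shared chain Il1rap. Ligands of the family are held back by antagonists and decoys such as Il1rn, Il1r2, Il18bp and Il1f5. Il6, Il11, Il12 and Il27 use receptors related to Il6st or Il12rb1, Il17 cytokines act on epithelial cells through Il17ra and its partners, and the Il10 family includes Il22, whose receptor Il22ra1 is found on epithelium. Cytokines of the common gamma chain family use Il2rg, and Il4 and Il13 can also use Il13ra1 with Il4ra.

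Levels are given as CPM, the count of a gene divided by the total of its tumor after TMM scaling of that total, in the customary unit. Totals ran from 28075317 to 32629102 counts in GEM-BCC tumors and from 15388027 to 17494912 in Tp-BCC tumors, so the same CPM rests on fewer counts in Tp-BCC tumors. Basal keratinocyte markers were abundant in both models (summed level of 6 genes, 11049 to 17352 CPM in GEM-BCC tumors and 8318 to 20803 CPM in Tp-BCC tumors). In bulk tumors, fewer cells of a type and less RNA per cell cannot be told apart. For each tumor, log2 CPM was also taken relative to the mean of the gene over all tumors. The rank correlation of this deviation with the GC content of the transcripts lay between -0.472 and -0.389 in TP3 and TP1. It was 0.593 in TP2 and 0.588 in TP4, and between -0.309 and -0.15 in GEM-BCC tumors other than GEM1 (0.364). TP2 and TP4 therefore stand apart from TP1 and TP3. For interleukin and receptor genes that came to pass or no longer passed without either pair, the values without it are given.

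Most interleukin ligands were too low to measure in these tumors, while most receptors were not. Of the 81 genes, 68 had a value in both models, 12 in GEM-BCC tumors alone and 1, Il3, in no tumor. A gene was tested when it reached 10 counts in at least 4 of the 13 tumors, which 48 genes did. These were 12 of 37 ligands, 29 of 37 receptor chains, all 5 inhibitors and decoys, and the enzymes Il4i1 and Il4i1b. The 20 genes with values that were not tested included Il6, with at most 6 counts in a GEM-BCC tumor and 2 in a Tp-BCC tumor, and Il12a and Il12b, the chains of Il12, with at most 4 and 3 counts in any tumor. Il10, an immunosuppressive cytokine, had 2 counts in GEM5, GEM7, TP1 and TP2 and 0 in the other tumors. Il4, which drives type 2 responses, had 1 count in GEM5, 0 in the other GEM-BCC tumors and no value in Tp-BCC tumors. A count of 0 allows up to 3 counts, from counting error only, so neither gene could be compared between the models at this depth.

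Of the other ligands and receptors below the filter, 2 rose well above the rest in single tumors. Il2ra, the high-affinity chain of the Il2 receptor, had 56, 26 and 30 counts in GEM5, GEM6 and GEM7, at most 8 in the other GEM-BCC tumors and at most 7 in a Tp-BCC tumor. Il1a, an alarmin of keratinocytes, had 21 and 12 counts in GEM5 and GEM6, 1 to 8 in the other GEM-BCC tumors and at most 1 in a Tp-BCC tumor. The other 18 stayed at or under 9 counts in every tumor. They were Il1rapl1, Il1rapl2, Il5, Il6, Il7, Il10, Il11ra2, Il12a, Il12b, Il12rb2, Il17c, Il17f, Il19, Il23r, Il24, Il25, Il27 and Il31. Of the 12 genes with values in GEM-BCC tumors alone, Il13 reached 8 counts in GEM7 and Il1f8 5 counts in GEM4, and Il1f6, Il2, Il4, Il5ra, Il9, Il9r, Il17a, Il20, Il21 and Il22 stayed at or under 3 counts.

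Between the models, 12 of the 48 tested genes differed (edgeR quasi-likelihood test, Benjamini-Hochberg adjusted p under 0.05 over all 14390 genes tested), 6 of them higher and 6 lower in Tp-BCC tumors. Over all genes tested, 19.4% passed this threshold, 11.1% as higher and 8.35% as lower. With a log2 fold change beyond 2 in addition, 4 genes were called (Il16, Il12rb1 and Il15 higher, Il13ra1 lower), where 5.57% of all genes were, 2.36% as higher and 3.21% as lower. The shares for interleukins and receptors are near those of the whole matrix, and their median log2 fold change of 0.065 stood beside -0.027 for all genes tested. At an unadjusted p under 0.05 there were 18 genes, where 34.5% of all genes tested were. Il11 and Il1f10, counted among the 12, reached the filter through GEM-BCC tumors alone. In 6 genes (Il16, Il12rb1, Il27ra, Il13ra1, Il11 and Il1f10) the CPM values of the models did not overlap, where 9.95% of all genes tested did not.

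**Figure D1:**
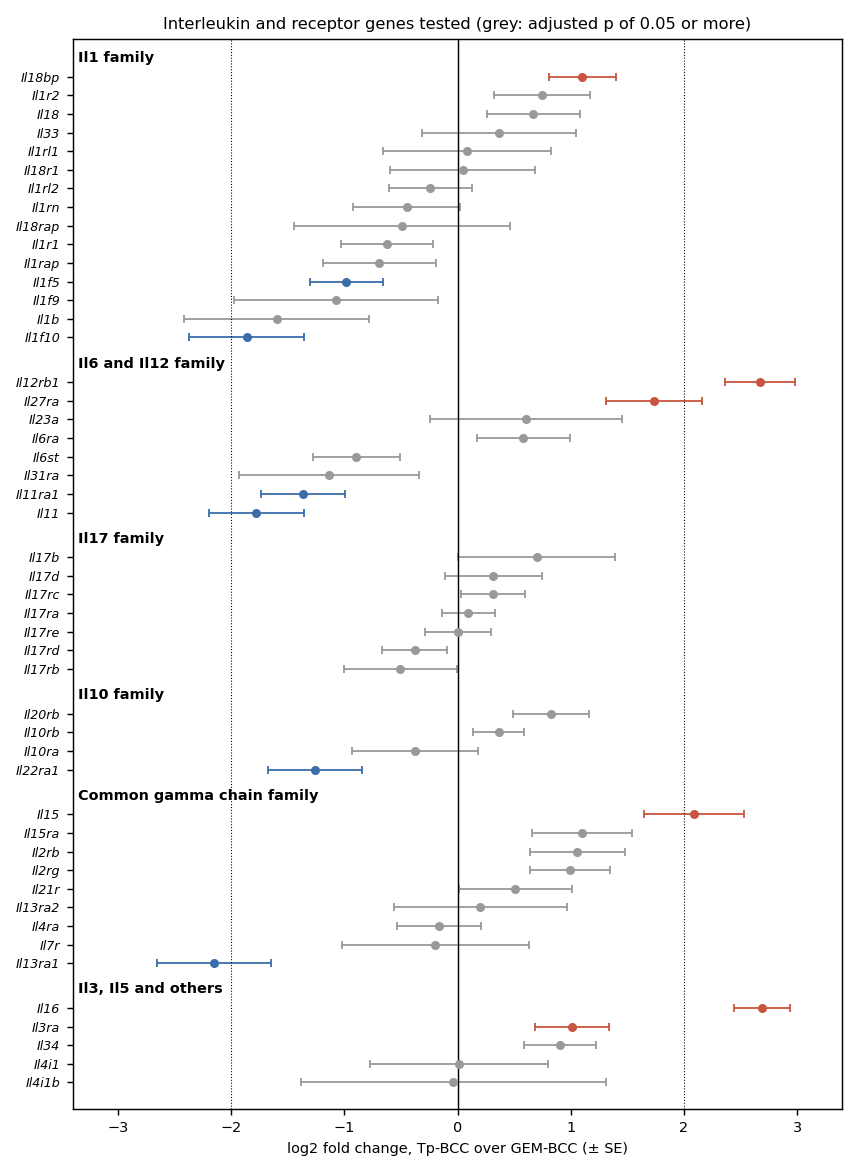
Log2 fold change (x axis, Tp-BCC over GEM-BCC) with its standard error for the 48 tested genes, one row per gene and grouped by family, from 9 GEM-BCC and 4 Tp-BCC tumors. Red and blue points have an adjusted p under 0.05 and grey points do not, dotted lines mark a log2 fold change of 2 in either direction, and no gene of the Il17 family is colored.

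Il16 and Il13ra1 lie at the ends of this range, and RefSeq (GRCm38.p6, not the GRCm39 build used for the counts) holds windows before their transcript starts. The 250 bases before the start are shown for both, 5′ to 3′ on the strand of the gene and with CG dinucleotides in capitals, as the start regions of the most raised and the most lowered gene. For Il16, which has 3 starts in RefSeq, the window furthest upstream lies at chr7:83735540-83735789 on the minus strand. The window of Il13ra1 lies at chrX:36111858-36112107 on the plus strand.
Il16: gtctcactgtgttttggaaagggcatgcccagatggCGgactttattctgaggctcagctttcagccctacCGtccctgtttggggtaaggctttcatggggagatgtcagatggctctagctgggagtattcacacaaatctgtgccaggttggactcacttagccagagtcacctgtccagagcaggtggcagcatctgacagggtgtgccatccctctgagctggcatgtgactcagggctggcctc
Il13ra1: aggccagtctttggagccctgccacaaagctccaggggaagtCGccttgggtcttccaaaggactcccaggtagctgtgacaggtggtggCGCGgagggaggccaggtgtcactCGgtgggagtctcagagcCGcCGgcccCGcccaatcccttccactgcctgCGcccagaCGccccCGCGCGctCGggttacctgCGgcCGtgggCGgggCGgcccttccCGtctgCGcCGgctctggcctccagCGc
The Il13ra1 window held 21 CG dinucleotides and was 70.8% G or C. The Il16 window shown held 2 and was 55.2% G or C, and the other Il16 windows held 7 (50.8%) and 3 (48%), against medians of 6 and 52.4% over 32851 RefSeq windows of this length. Windows existed for 9 of the 12 genes that passed, 14 windows in all. The GLI motif GACCACCCA, bound by the transcription factors at the end of the Hedgehog pathway, was in none of them on either strand and in 0.225% of all windows. The Stat motif TTCNNNGAA was in 1 window of Il1f5 and in 7.02% of all windows, and the interferon-stimulated response element (ISRE) motif in none of the 14 and in 2.98% of all. These matches describe letters in a window and not binding.

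Of the 48 interleukin and receptor genes tested, Il16 had the largest log2 fold change, with Il12rb1 close to it (2.67 ± 0.31, SE). Without TP1 and TP3 the order turned, with 3.05 for Il12rb1 and 2.91 for Il16. The cytokine Il16 is cut from a larger precursor and attracts Cd4-positive cells. It measured 35.2, 60.1, 39.1 and 42.9 CPM in TP1 to TP4, and 4.32 CPM at the lowest, 6.81 at the median and 12.6 at the highest of 9 GEM-BCC tumors. Every Tp-BCC tumor lay above every GEM-BCC tumor, and the highest GEM-BCC value, in GEM3, was the one nearest to them. Means were 44.3 ± 10.98 CPM (SD, n = 4) and 6.87 ± 2.32 CPM (SD, n = 9), and the log2 fold change was 2.69 ± 0.25 (SE, adjusted p = 3.91e-06). Per kb of its longest coding transcript, Il16 moved from rank 26 of the 48 genes in GEM-BCC tumors (1.31 ± 0.442 CPM per kb) to rank 10 in Tp-BCC tumors (8.43 ± 2.09). Cd4 itself did not pass (log2 fold change -0.43 ± 0.54).

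Il3ra, the alpha chain of the Il3 receptor, passed with a smaller difference. It was at 4.298, 6.49, 4.19 and 9.50 CPM in TP1 to TP4 and at 2.17, 2.65 and 5.23 CPM at the lowest, median and highest GEM-BCC tumor. Only TP2 and TP4 lay above the GEM-BCC range, and the log2 fold change was 1.01 ± 0.33 (SE, adjusted p = 0.0420). It fell to 0.48 without TP2 and TP4 (adjusted p = 0.468), and to 0.66 without TP4 alone (adjusted p = 0.228). The adjusted p also rose above 0.05 without each of GEM1, GEM2, GEM4, GEM6, GEM7, GEM8, GEM9 and TP2, where it lay between 0.0569 and 0.126. Il34, a second ligand of the macrophage receptor Csf1r, was at 11.2, 16.9, 11.6 and 23.6 CPM in Tp-BCC tumors. The lowest, median and highest GEM-BCC tumor had 4.52, 6.66 and 14.8 CPM. With a log2 fold change of 0.90 ± 0.32 Il34 missed the threshold (adjusted p = 0.0571). It passed without TP1 and TP3 (1.26, adjusted p = 0.0143) and not without TP2 and TP4 (0.43, adjusted p = 0.494). The paired copies Il4i1 and Il4i1b, enzymes that break down phenylalanine, overlap in the annotation and divide their reads, and their summed level differed by a log2 of -0.0068 (exact permutation test, two-sided, p = 0.987).

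**Figure D2:**
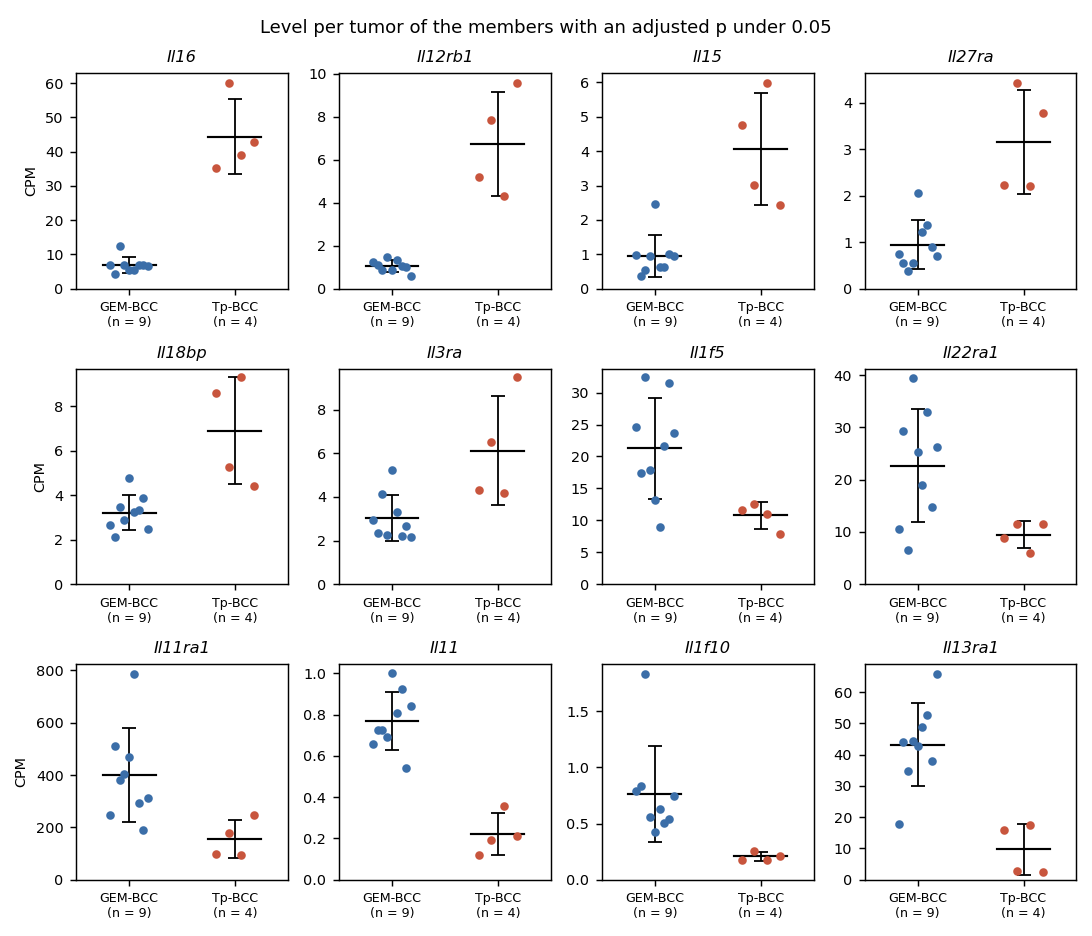
CPM (y axis, from 0) of the 12 genes with an adjusted p under 0.05, with a point for each tumor, blue for the 9 GEM-BCC and red for the 4 Tp-BCC tumors, and a black line and bar for the mean and SD. Genes run from the highest to the lowest log2 fold change, and the models are apart for Il16, Il12rb1, Il27ra, Il11, Il1f10 and, narrowly, Il13ra1.

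In the Il6 and Il12 family 2 receptor chains were higher and the receptor Il11ra1 lower in Tp-BCC tumors, and with the ligand Il11 they made up the 4 of 8 tested genes that passed. Il12rb1, the chain that the Il12 and Il23 receptors share, was at 5.18, 7.84, 4.31 and 9.57 CPM in TP1 to TP4. GEM-BCC tumors ranged from 0.582 CPM through a median of 1.05 to 1.45. No tumor of one model reached into the range of the other, and the log2 fold change was 2.67 ± 0.31 (SE, adjusted p = 3.97e-05). Il27ra, the receptor of Il27, was at 2.24, 4.44, 2.21 and 3.78 CPM in TP1 to TP4, and at 0.380, 0.756 and 2.06 CPM at the lowest, median and highest GEM-BCC tumor. The highest GEM-BCC tumor, GEM5, came close to TP1 and TP3, and the log2 fold change of 1.74 ± 0.43 (SE, adjusted p = 0.0110) was 1.49 without TP2 (adjusted p = 0.0594) and 1.22 without TP2 and TP4 (adjusted p = 0.172). Of the ligand chains for these receptors, Il12a, Il12b and Il27 had at most 4, 3 and 4 counts in a tumor. Il23a, which pairs with Il12b in Il23, had 65 counts in GEM6, 17 in GEM5, 1 to 11 in every other GEM-BCC tumor and 6 to 11 in TP1 to TP4. Ebi3, the partner of Il27, ran from 11 to 20 counts (0.648 to 1.36 CPM) over TP1 to TP4. Over GEM1 to GEM9 it ran from 11 to 35 counts (0.351 to 1.05 CPM). Log2 fold changes were 0.60 ± 0.85 for Il23a and 0.56 ± 0.40 for Ebi3, and neither gene passed. Il12rb2, the other chain of the Il12 receptor, had 2 to 9 counts in every tumor and was not tested. This is 0.143 to 0.530 CPM in Tp-BCC tumors and 0.0986 to 0.286 CPM in GEM-BCC tumors.

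Il11ra1 had the highest level per length of the 48 genes in both models and fell in Tp-BCC tumors. It binds Il11, a cytokine of stromal and bone cells that signals through Il6st. Il11ra1 was at 99.5, 178, 94.6 and 248 CPM in TP1 to TP4, and at 188, 380 and 788 CPM at the lowest, median and highest GEM-BCC tumor. TP1, TP2 and TP3 lay below every GEM-BCC tumor and TP4 did not. The log2 fold change was -1.36 ± 0.37 (SE, adjusted p = 0.0198), with -2.05 without TP2 and TP4 and -0.90 without TP1 and TP3 (adjusted p = 0.112). Leaving out TP1 or TP3 alone also put the adjusted p above 0.05 (-1.20 and -1.19, adjusted p = 0.0600 and 0.0513). Per kb it stood first in both models, at 199 ± 88.7 CPM per kb in GEM-BCC tumors and 77.2 ± 36.3 in Tp-BCC tumors, with Il17b next at 19.1 ± 24.96 and 31.0 ± 12.8.

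Of the 100-base stretches in its transcripts, 42.7% also occur in Gm13305 and 14.9% in Il11ra2, so reads could be divided among the copies. Summing all 3 gave a log2 difference of -1.36 (exact permutation test, two-sided, p = 0.0028 over 715 splits). Il11ra1 made up nearly all of this sum, with a mean of 399.51 of 399.58 CPM in GEM-BCC tumors and 155.16 of 155.56 CPM in Tp-BCC tumors. Alone it gave the same difference and p, so the sum is not a separate test. Il11 had 2, 3, 6 and 3 counts in TP1 to TP4, and 17 at the lowest, 23 at the median and 35 at the highest GEM-BCC tumor. This is 0.118, 0.193, 0.359 and 0.214 CPM in Tp-BCC tumors against 0.543 to 1.00 CPM, with no overlap, and a log2 fold change of -1.78 ± 0.42, with an adjusted p of 0.0094. Without TP2 and TP4 the adjusted p was 0.0752. Il11 entered the test through its counts in GEM-BCC tumors alone, so a lower level in Tp-BCC tumors was in part set by the filter and its p carries little weight. Il6st, the signalling chain of Il6, Il11 and their relatives, was at 90.8, 76.1, 81.8 and 30.7 CPM in Tp-BCC tumors and at 54.2, 120 and 266 CPM at the lowest, median and highest GEM-BCC tumor. Only TP4 lay below the GEM-BCC range, and Il6st did not pass (log2 fold change -0.89 ± 0.39, adjusted p = 0.116). Il6ra, the receptor of Il6, had a log2 fold change of 0.58 ± 0.41 and Il31ra, an itch receptor, of -1.14 ± 0.79, neither past the threshold.

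In the common gamma chain family Il15 was higher and Il13ra1 lower in Tp-BCC tumors, 2 of the 9 genes tested. Il15 keeps natural killer and memory T cells alive and is presented by Il15ra. It was at 4.77, 3.02, 5.99 and 2.43 CPM in TP1 to TP4, and at 0.363, 0.938 and 2.46 CPM at the lowest, median and highest GEM-BCC tumor. The GEM-BCC values other than that of GEM5 stayed at or under 1.02 CPM, and GEM5 lay just above TP4. The log2 fold change was 2.09 ± 0.44 (SE, adjusted p = 0.0044). It passed in every fit that left out 1 tumor, while its fold was under 2 on the log2 scale without GEM2, GEM3 or TP3 (1.98, 1.97 and 1.84). It was 2.49 without TP2 and TP4 and 1.52 without TP1 and TP3 (adjusted p = 0.0428), where it was no longer called, and it was not called with counts summed per mouse.

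The receptor chains that act with Il15 had positive log2 fold changes that missed the threshold. These were Il15ra at 1.10 ± 0.44 (adjusted p = 0.0929), Il2rb at 1.06 ± 0.42 and the common gamma chain Il2rg at 0.99 ± 0.36 (adjusted p = 0.0611). Il2rb passed without TP1 and TP3 (1.58, adjusted p = 0.0170) and not without TP2 and TP4 (0.24, adjusted p = 0.804). Il2rg measured 8.42, 9.26, 8.2003 and 8.07 CPM in Tp-BCC tumors and from 2.08 to 8.80 CPM in GEM-BCC tumors, where GEM5 and GEM6 were the highest. The spread of Il2rg was small among Tp-BCC tumors, with an SD of 0.09 in log2 CPM against 0.66 among GEM-BCC tumors. Il2rg shares 40.2% of its 100-base stretches with Gm20489, so its counts are uncertain.

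Il13ra1 fell most, and it also varied most among Tp-BCC tumors of the genes that passed. It was at 15.95, 2.89, 17.4 and 2.57 CPM in TP1 to TP4, and at 17.7, 44.2 and 65.7 CPM at the lowest, median and highest GEM-BCC tumor. The models did not overlap, yet TP1 and TP3 came within 2 CPM of the lowest GEM-BCC tumor, GEM1, while TP2 and TP4 lay far below. The log2 fold change was -2.15 ± 0.50 (SE, adjusted p = 0.0086), -1.38 without TP2 and TP4 (adjusted p = 0.0361) and -3.98 without TP1 and TP3. Without TP2 alone it was -1.87 and without TP4 alone -1.86, so the gene passed but was no longer called. Its partner Il4ra was at 27.0, 51.9, 26.1 and 81.1 CPM in Tp-BCC tumors, where TP2 and TP4 were the high pair, and at 27.0, 43.7 and 100.3 CPM at the lowest, median and highest GEM-BCC tumor. The log2 fold change of Il4ra was -0.16 ± 0.37 and did not pass.

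The opposite order of Il13ra1 and Il4ra among the Tp-BCC tumors ran through the whole set. Across the 48 genes, the difference between TP1 and TP3 on one side and TP2 and TP4 on the other followed the GC content of the transcripts, with a Spearman rho of -0.898. The points share 4 libraries, so this is a description. It was 2.58 in log2 CPM for Il13ra1 (41.2% GC), 2.77 for Il1rap (43.4%), -1.12 for Il11ra1 (58.2%) and -1.16 for Il17rc (60.5%). After removal of the GC trend of each tumor the same differences were 0.79, 1.11, -0.25 and -0.24, and 4 genes in place of 18 were over 1 apart. Whether GC content or biology sets these tumors apart was not tested.

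**Figure D3:**
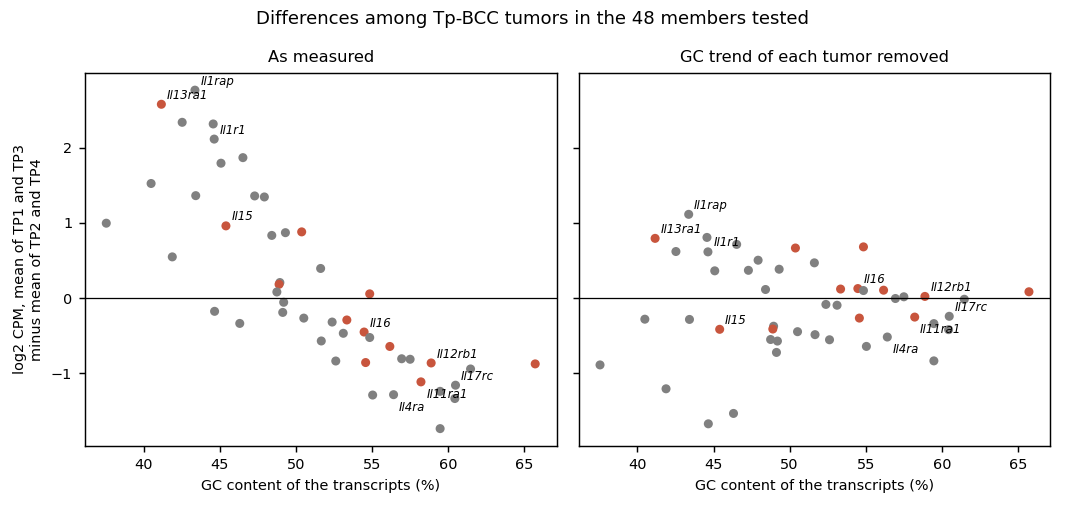
Difference in log2 CPM between the mean of TP1 and TP3 and the mean of TP2 and TP4 (y axis) against the GC content of the transcripts in percent (x axis), as measured on the left and after removal of each tumor's GC trend on the right. Each point is 1 of the 48 genes tested, red where the adjusted p between models was under 0.05, and the slope seen on the left is mostly gone on the right.

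With each tumor's GC trend entered as an offset, 14 of the 48 genes had an adjusted p under 0.05, where 28.6% of all genes did. The same 4 genes were called, with log2 fold changes of 2.50 for Il16, 2.33 for Il12rb1, 2.49 for Il15 and -2.05 for Il13ra1. Il18 (1.34, adjusted p = 0.0230), Il15ra (1.24, adjusted p = 0.0378) and Il2rg (1.23, adjusted p = 0.0204) came to pass, and Il1f5 (-0.74, adjusted p = 0.0785) no longer did. In this fit Il15, its presenting receptor Il15ra and the common gamma chain Il2rg were higher in Tp-BCC tumors. Il2rb, the other receptor chain that acts with Il15, did not pass (0.75, adjusted p = 0.152). The counts of Il2rg are uncertain, as given above.

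Of 15 Il1 family genes tested, Il18bp was higher and Il1f5 lower in Tp-BCC tumors, and Il1f10, next to Il1f5 on the chromosome, passed on very few counts. Il18bp, a secreted protein that captures Il18, was at 8.60, 5.27, 9.34 and 4.43 CPM in TP1 to TP4, and at 2.14, 3.26 and 4.80 CPM at the lowest, median and highest GEM-BCC tumor. TP4 alone lay within the GEM-BCC range, below GEM5. The log2 fold change was 1.10 ± 0.29 (SE, adjusted p = 0.0169), and it missed the threshold without TP1 (0.98, adjusted p = 0.0563), without TP3 (0.92, adjusted p = 0.0569) and without both (0.60, adjusted p = 0.195). Il18 itself had a log2 fold change of 0.67 ± 0.41.

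Il1f5, which encodes the Il36 receptor antagonist, was at 11.6, 12.6, 11.01 and 7.85 CPM in TP1 to TP4. GEM-BCC tumors ranged from 8.91 CPM in GEM6 through a median of 21.7 to 32.5 in GEM3. TP4 lay below that range and the other Tp-BCC tumors at its low end, and the log2 fold change was -0.98 ± 0.32 (SE, adjusted p = 0.0430). Leaving out any 1 of GEM2, GEM4, GEM7, GEM8, GEM9 and the 4 Tp-BCC tumors put the adjusted p between 0.0504 and 0.0995, and it was 0.171 without TP2 and TP4 and 0.0673 without TP1 and TP3. Il1f10, known as Il38 and also held to be an antagonist, had 3, 4, 3 and 3 counts in TP1 to TP4 and 15, 21 and 58 counts at the lowest, median and highest GEM-BCC tumor. It did not overlap (0.177 to 0.257 CPM against 0.429 to 1.83 CPM) and its log2 fold change was -1.86 ± 0.51 (adjusted p = 0.0187), and the adjusted p was 0.0508 without TP1, 0.0816 without TP2 and TP4 and 0.0734 without TP1 and TP3. Like Il11 it entered the test through GEM-BCC tumors alone, so its direction was in part set by the filter. In the row of Il1 genes on this chromosome (Il1f8, Il1f9, Il1f6, Il1f5, Il1f10, Il1rn), the agonist Il1f9 and the antagonist Il1rn did not pass, and Il1f6 and Il1f8 were too low to test.

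Among Il1 receptors none of the genes tested passed. Il1r1, the receptor of Il1a and Il1b, was at 49.0, 19.9, 43.5 and 5.64 CPM in TP1 to TP4 and at 31.9, 42.7 and 73.7 CPM at the lowest, median and highest GEM-BCC tumor. Il1rl2, the receptor of the Il36 cytokines, was at 51.2, 23.6, 56.2 and 9.07 CPM in TP1 to TP4 and at 28.0, 36.5 and 57.7 CPM in the same order. TP1 and TP3 lay within the GEM-BCC range for both receptors, and TP2 and TP4 below it. Log2 fold changes were -0.62 ± 0.40 for Il1r1, -0.24 ± 0.37 for Il1rl2 and -0.69 ± 0.50 for the shared chain Il1rap. Without TP2 and TP4 they were 0.02, 0.37 and 0.11, and without TP1 and TP3 all 3 passed as lower (-1.83, -1.34 and -2.65). Il1b, the inflammatory ligand, had a log2 fold change of -1.60 ± 0.81 (adjusted p = 0.176) with a GEM-BCC range of 0.164 to 2.51 CPM and 0.0589 to 0.4998 CPM in Tp-BCC tumors. The 6 genes of the Il1 receptor cluster (Il1r2, Il1r1, Il1rl2, Il1rl1, Il18r1 and Il18rap) had log2 fold changes between -0.62 and 0.74.

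The Il10 family had 4 genes that could be tested, all of them receptor chains, and 1 passed. Il22ra1, through which Il22 acts on keratinocytes, was at 8.83, 11.5, 6.05 and 11.4 CPM in TP1 to TP4, and at 6.58, 25.3 and 39.5 CPM at the lowest, median and highest GEM-BCC tumor. GEM1 and GEM3 lay among the Tp-BCC values and the other 7 GEM-BCC tumors above them. The log2 fold change was -1.26 ± 0.42 (SE, adjusted p = 0.0446), and leaving out any 1 of GEM2, GEM4, GEM5, GEM6, GEM7, GEM9 and the 4 Tp-BCC tumors put the adjusted p between 0.0558 and 0.0958, and it was 0.0992 without TP2 and TP4 and 0.157 without TP1 and TP3. Il10rb, the chain shared by the Il10 and Il22 receptors, was at 32.5, 32.2, 27.2 and 35.8 CPM in Tp-BCC tumors and at 17.8, 23.8 and 35.7 CPM at the lowest, median and highest GEM-BCC tumor, and did not pass (log2 fold change 0.36 ± 0.23). It shares 17.6% of such stretches with Gm21970. Il20rb, a chain of the Il20 and Il24 receptors, had a log2 fold change of 0.83 ± 0.33 (adjusted p = 0.0926). The ligands Il19, Il20, Il22 and Il24 did not exceed 9 counts in any tumor.

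None of the 7 Il17 family genes tested passed. Their log2 fold changes lay between -0.51 and 0.70, and Il17a, Il17c, Il17f and Il25 did not exceed 5 counts in any tumor. Il17rd, a receptor-like protein that also dampens growth factor signalling, was at 76.4, 107, 67.4 and 69.9 CPM in TP1 to TP4 and at 52.8, 99.9 and 198 CPM at the lowest, median and highest GEM-BCC tumor (log2 fold change -0.38 ± 0.29). Il17rc, the partner of Il17ra, was at 28.0, 52.0, 27.1 and 73.0 CPM in TP1 to TP4. The lowest, median and highest GEM-BCC tumor had 25.8, 34.9 and 55.0 CPM (log2 fold change 0.32 ± 0.28). Without TP1 and TP3 Il17rc passed as higher (0.79, adjusted p = 0.0305), and without TP2 and TP4 its log2 fold change was -0.39 (adjusted p = 0.369). The 4 Tp-BCC tumors lay within the GEM-BCC range for both receptors, except TP4 for Il17rc. A p above the threshold does not show that the levels were equal.

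GEM-BCC tumors varied widely in these genes. The median SD over the 48 genes was 0.70 in log2 CPM among GEM-BCC tumors and 0.55 among Tp-BCC tumors, beside 0.44 and 0.58 over all genes tested. No test was made of the difference between these SDs. They were not matched for level, and at low counts they include counting error. The largest SD, of Il4i1b, rested on 0 to 63 counts in GEM-BCC tumors, and its reads are divided with Il4i1. GEM5 held the highest GEM-BCC value for 13 of the 48 genes and GEM6 for 9. Of the tumors that shared a mouse, GEM2 and GEM3 had a median difference of 0.80 and GEM7 and GEM8 of 0.58, beside 0.76 over the other 34 pairs.

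Of 34 genes with a mean of at least 1 CPM in GEM-BCC tumors, the 8 with the largest SD were Il31ra, Il17b, Il13ra2, Il17rb, Il10ra, Il18r1, Il1r2 and Il22ra1. Il31ra was at 13.2, 10.5 and 11.6 CPM in GEM4, GEM8 and GEM9 and between 0.743 and 2.63 CPM in the other 6. Il17b, an Il17 cytokine that binds Il17rb, was at 57.3 CPM in GEM5 and 18.6 CPM in GEM7 and between 1.38 and 10.5 CPM elsewhere, with 13.1 to 32.9 CPM in Tp-BCC tumors (log2 fold change 0.70 ± 0.69, and 1.48 without GEM5 with an adjusted p of 0.0543, and 0.34 without TP4). Il10ra, the specific chain of the Il10 receptor, was at 10.5 CPM in GEM5 and 5.56 CPM in GEM6 and between 0.956 and 4.31 CPM in the other GEM-BCC tumors. In GEM6 the summed macrophage markers were also the highest, at 301 CPM, and in GEM5 they were at 188 CPM, beside a GEM-BCC median of 180. Their part in these levels was not tested.

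**Figure D4:**
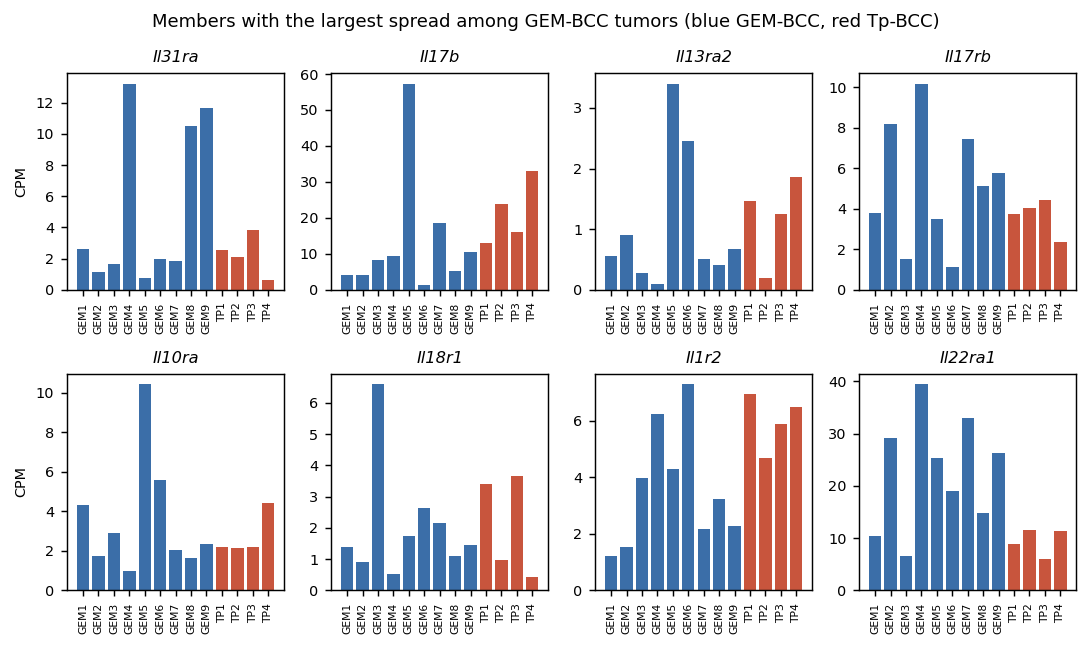
CPM (y axis, from 0) in each of the 13 tumors (x axis, blue for GEM-BCC and red for Tp-BCC) for the 8 genes with the largest SD of log2 CPM among GEM-BCC tumors, given a mean of at least 1 CPM there. GEM5 is the highest GEM-BCC tumor for Il17b, Il13ra2 and Il10ra, and GEM4 for Il31ra, Il17rb and Il22ra1.

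Marker genes of other cell types are set beside these results, since interleukins and their receptors are shared by many cells. T and NK cell markers were low in both models. The 9 genes summed to 5.57 to 15.97 CPM in GEM-BCC tumors and 5.51 to 13.2 CPM in Tp-BCC tumors. Lck alone was at 5.04 to 11.9 CPM and 3.89 to 10.6 CPM in the same order, so the sums mostly follow Lck. Neither Lck nor Cd4, the 2 that could be tested, passed. Cd3d, Cd3e and Cd3g, which define T cells, had at most 3 counts in a Tp-BCC tumor and at most 21 in a GEM-BCC tumor. Of 10 macrophage markers only Cd68 rose (log2 fold change 1.31 ± 0.39), with summed levels of 91.0 to 301 and 221 to 320 CPM. Of 7 mast cell markers 4 could be tested and none passed, with summed levels of 0.297 to 7.15 and 3.29 to 10.5 CPM. All 4 had positive log2 fold changes (median 1.40). Cpa3 came nearest to the threshold (2.11 ± 0.72, adjusted p = 0.0514) and passed with the GC offset (2.83, adjusted p = 0.0107). Neutrophil markers summed to 0.890 to 8.33 and 1.03 to 2.36 CPM, with S100a8 and S100a9 lower among 3 tested, on at most 3 counts in a Tp-BCC tumor. Endothelial markers rose in 4 of 5 (82.5 to 205 and 299 to 367 CPM) and adipocyte markers in 3 of 3 tested (0.400 to 3.26 and 10.7 to 84.3 CPM). Among 7 fibroblast markers Pdgfra and Pdgfrb rose and Col1a1 fell (12062 to 49100 and 15693 to 28341 CPM). Of the 6 basal keratinocyte markers summed above, Col17a1 rose (log2 fold change 2.00 ± 0.50, adjusted p = 0.0120) and none fell. With the GC offset Col17a1 passed again (1.69, adjusted p = 0.0148) and Krt14 passed as lower (-1.02, adjusted p = 0.0146). Among the adipocyte markers, Cidec had at most 2 counts in a GEM-BCC tumor and 18 to 360 in Tp-BCC tumors. It entered the test through Tp-BCC tumors alone, so its direction was in part set by the filter. The part of the cell types of these lists in the levels of Il16, Il12rb1, Il15 or Il27ra was not tested.

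Differentiated keratinocyte markers moved in the same direction as Il1f5, Il1f10 and Il22ra1. Of 8 such genes, Krt10, Krt77 and Krt79 fell and none rose. Krt77 had at most 1 count in a Tp-BCC tumor and entered the test through GEM-BCC tumors alone. Its direction was therefore in part set by the filter. The 8 genes had a summed level of 45.0 to 1568 CPM in GEM-BCC tumors and 47.98 to 68.9 CPM in Tp-BCC tumors. GEM3, which had the lowest sum of all GEM-BCC tumors, had the lowest level of Il22ra1 there and the highest of Il1f5 and Il1f10. Their part in these results was not tested.

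Of genes that work with interleukins but carry other names, 7 of the 51 that could be tested had an adjusted p under 0.05, beside 19.4% of all genes tested. Of 12 genes that keratinocytes switch on in response to Il1 and Il17, 4 were high enough to test, each with an adjusted p under 0.05 and a lower level in Tp-BCC tumors. They were the protease inhibitor Slpi (log2 fold change -4.27 ± 1.16), the antimicrobial S100a8 (-3.60 ± 1.09) and S100a9 (-3.27 ± 1.06) and the iron carrier Lcn2 (-3.07 ± 0.66). S100a8 and S100a9, which also mark neutrophils, had at most 2 and 3 counts in a Tp-BCC tumor and entered the test through GEM-BCC tumors alone, so their direction was in part set by the filter. With the GC offset neither passed (adjusted p = 0.0556 and 0.0953). Slpi ranged from 0.511 to 42.8 CPM among GEM-BCC tumors and from 0.118 to 1.14 CPM among Tp-BCC tumors, and the summed level of the list was highest in GEM6 (58.6 CPM). All 4 had at most 16 counts in a Tp-BCC tumor.

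In the list of Il1 and Il17 signalling genes, 2 of 16 passed. Pycard, the adaptor of the inflammasome that activates caspase 1, fell by 1.46 ± 0.26 on the log2 scale, and Gsdmd, the pore through which Il1b and Il18 leave a cell, rose by 1.37 ± 0.25. Pycard was at 42.8 to 93.7 CPM in GEM-BCC tumors and 17.1 to 27.3 CPM in Tp-BCC tumors, and Gsdmd at 9.03 to 20.1 and 26.3 to 40.1 CPM. Neither overlapped between the models. Of 15 relatives tested that lack the prefix, Clcf1, a ligand that signals through Il6st, passed as lower (log2 fold change -1.38 ± 0.27). None of 16 Jak and Stat pathway genes passed in the fit over all 13 tumors without a GC offset (median log2 fold change -0.07). With the GC offset, Pias3 passed as higher (0.40, adjusted p = 0.0392). Socs1 (-0.735, adjusted p = 0.0296) and Socs3 (-0.49, adjusted p = 0.0453) passed as lower. In the other lists Casp1 (1.39, adjusted p = 0.0099) and Ctf1 (-0.63, adjusted p = 0.0259) came to pass. In that fit 10 genes of these lists passed in place of 7.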

How the data were processed

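RNA selected by poly(A) from 9 GEM-BCC and 4 Tp-BCC tumors was sequenced as paired-end reads. The authors trimmed the reads with SOAPnuke, aligned them with Bowtie2 2.3.4.3 to GRCm39 transcripts and deposited RSEM 1.3.1 estimated counts per gene, which are not normalized. Replicates were not pooled. The numbers of the tumors do not pair the models, since the mice differ.

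Genes with a value in every tumor were rounded to whole counts, kept at 10 or more counts in at least 4 tumors, scaled by TMM and tested with edgeR 4.0.16 in R 4.3.3 (quasi-likelihood, robust, model as the only term, Benjamini-Hochberg over all genes tested), after the code was tested on simulated data. A call needed an adjusted p under 0.05 and a log2 fold change beyond 2. Of the matching rows, 2 are not reported here. The SE is the size of the log2 fold change divided by the square root of its F statistic, and log2 CPM used a prior count of 2. GC content and lengths came from GENCODE transcripts (GRCm38), and all 81 genes matched. All p-values measure the spread between tumors, of which 2 mice gave 2 each. The Tp-BCC tumors descend from a single GEM-BCC tumor, so their spread is not that between separately founded transplant lines. Named genes were those that passed, the 2 highest tested genes of each family, Il4 and Il10, with others by fold change, range or highest count. The genes, families and lists were chosen with earlier results of these data known. The alternatives were DESeq2 1.42.0, other normalizations and filters, a GC offset, sums per mouse, a replicate block and leaving out tumors.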

Additional observations from a re-analysis of the deposited data

Results flagged for a closer look

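Over 96 groups of values (48 genes in each model), 7 held a tumor far from the others by Dixon's test at the 95% level, where chance alone flags about 1 in 20 groups. Among GEM-BCC tumors, GEM3 stood above the others for Il16 (3.66 log2 CPM, others 2.14 to 2.81) and for Il1f10 (0.93, others -0.99 to -0.13), and GEM1 stood below them for Il13ra1 (4.15, others 5.12 to 6.04). The Il16 value of GEM3 is the GEM-BCC value nearest to the Tp-BCC tumors. Among Tp-BCC tumors, TP4 stood above the others for Il10ra (2.17 log2 CPM, others 1.14 to 1.195) and below them for Il6st (4.94, others 6.25 to 6.51), TP2 below them for Il18 (1.69, others 2.64 to 2.72), and TP1 below them for Il4i1b (-3.73, which is 0 counts, others -0.85 to -0.48). Il13, a type 2 cytokine, reached 8 counts in GEM7 and Il1f8, an Il36 cytokine, 5 counts in GEM4, both above 3 counts. Neither had a value in Tp-BCC tumors, and whether a missing value there stands for a count of 0 is not known. Totals were also lower in Tp-BCC tumors, so neither gene could be compared between the models.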

How the results depend on the processing

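The main count of 12 genes with an adjusted p under 0.05 stayed within 1.5 times under DESeq2 size factors, library size alone, no filter, a stricter filter, DESeq2, dispersions that were not robust, sums per mouse, missing values set to 0 and the GC offset. With the replicate block it was 0, with 0 called and 1 in place of 7 other genes of the pathway, at 14 genes with an unadjusted p under 0.05. With the GC offset and the block together it was 4, and 2 for the other genes. Numbers shared by the models did not pair tumors (correlations of deviations -0.381 to -0.101). The fits without pairs of Tp-BCC tumors and the GC offset with the block were chosen after seeing the data. Without TP2 and TP4 the count was 6, and without TP1 and TP3 the other pathway genes numbered 16. At a fold threshold of 1, 11 genes were called. Leaving out 1 tumor gave 7 (without TP1) to 13 genes, 3 to 4 called and 5 to 9 other genes. Directions turned for Il17rc with the GC offset (-0.058), with the offset and block (-0.078) and without TP2 and TP4 (-0.39), where Il1r1 (0.021), Il1rap (0.11) and Il1rl2 (0.37) turned too, and for Il4ra without TP1 and TP3 (0.36). With 1 tumor left out, Il17rc ran from -0.073 to 0.50, Il1rl2 from -0.56 to 0.049 and Il4ra from -0.63 to 0.038. These are the genes given with a fold change in the text. Over all genes that had not passed, 46 fits other than those that left out 1 tumor turned direction, among them fits of Il18r1 (to -1.55), Il33 (to -1.20), Il17d (to -0.54), Il17re (to -0.46) and Il1rn (to 0.073). The cause was not tested. The 12 genes kept their direction in every alternative run and, leaving out 1 tumor apart, passed in 119 fits and missed the threshold in 35.

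Depth limits the low genes. Totals were lower in Tp-BCC tumors, where Il11 and Il1f10 rested on 2 to 6 counts, and 33 of 81 genes could not be tested.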
